A study of Chlorocebus sabaeus with 6 samples.

Results

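The E2F transcription factors and the RB pocket proteins were followed at the transcript level in COS7 cells with and without ATL2 and ATL3. Members were the rows of the deposited expression table carrying the symbols E2F1 to E2F8, RB1 or RBL1, and all 10 were found among 18050 genes. COS7 is a fibroblast-like line from African green monkey kidney (Chlorocebus sabaeus) transformed with SV40. Wild-type cells (WT, n = 3) were set against cells in which both ATL2 and ATL3 had been knocked out (DKO, n = 3), all grown alike in DMEM with fetal bovine serum and with no treatment stated. ATL2 and ATL3 encode atlastins, GTPases of the endoplasmic reticulum. The labels give neither the number of knockout clones nor whether the samples were separate cultures. The p-values below therefore set the genotype difference against the spread among these samples only, and that spread may be technical.

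E2F proteins bind the promoters of genes for DNA replication and cell division, mostly as dimers with a DP protein. E2F1, E2F2 and E2F3 activate these genes, E2F4 and E2F5 mainly repress them together with pocket proteins, and E2F6, E2F7 and E2F8 repress without pocket proteins. RB1, RBL1 (p107) and RBL2 (p130) mask E2F until cyclin-dependent kinases phosphorylate them. The large T antigen of SV40 binds the pocket proteins and frees E2F from them, so in COS7 their function is inhibited at the protein level, which transcript counts do not show.

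Libraries held 14197344 to 15693049 estimated counts. Both targeted genes were lower in DKO, ATL2 at 19.4% and ATL3 at 13.6% of their WT mean in FPKM (fragments scaled by transcript length and library size). DKO replicate 3 stood apart from DKO replicates 1 and 2, and each member is therefore given with and without it. Over the 13094 genes tested, the log2 CPM (counts scaled to library size) of DKO replicate 3 minus the mean of the other DKO samples had quartiles of -0.47 and 0.44. By more than 1, 11.4% of genes differed in either direction, and 10.2% were lower in DKO replicate 3. The median range among the WT samples was 0.16. Of 11 fibroblast markers in the table, VIM was high in both genotypes, while THY1, DCN and COL1A2 were listed at 0 in all WT samples. The summed fibroblast markers ran from 3402 to 3495 FPKM in WT and from 1582 to 1624 in DKO, with FN1 at 1838 FPKM in WT and 207 in DKO, and of 7 tested 2 were called higher and 3 lower. The summed kidney epithelial markers ran from 779 to 875 FPKM in WT and from 559 to 725 in DKO, with 2 of 9 tested higher and 6 lower. Log2 fold changes of these 9 ran from -8.48 to 2.31, with a median of -1.06. The summed endothelial markers ran from 0.36 to 0.53 FPKM in WT and from 15.2 to 15.9 in DKO, where TEK was the single one of 6 above 1 FPKM. The 2 tested, TEK and VWF, were called higher. The summed leukocyte markers ran from 21.3 to 24.3 FPKM and from 24.8 to 37.3, with CD3E, PTPRC and CD14 at or near 0. In each genotype 2 of the 6 were above 1 FPKM. Of 3 leukocyte markers tested, 1 was called higher (LYZ), a call lost without WT replicate 3. The shares called were 71.4% of tested fibroblast, 88.9% of kidney epithelial, 100% of endothelial and 33.3% of leukocyte markers, beside 45.5% of all genes. The part of all these markers in the results below was not tested. In bulk RNA, fewer cells of a type and less RNA per cell cannot be told apart.

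All 10 members passed the filter on low counts and were tested with edgeR, which called 1 higher (E2F6) and 3 lower (E2F2, E2F3 and E2F5) in DKO at a Benjamini-Hochberg adjusted p below 0.05. The background was 45.5% of tested genes called, with 23.3% higher and 22.2% lower, and 4 called of 10 members is close to it. When DKO replicate 3 was left out, 3 members were higher and 4 lower, where 36% of all genes were higher and 38.6% lower (74.6% in either direction). WT and DKO values did not overlap for 7 of 10 members and for 62.6% of the genes tested. In the fit over all samples the largest differences were those of E2F2, almost absent from DKO, and of E2F6, more than doubled. E2F5 came close to E2F6 in size (log2 fold changes of -1.13 and 1.26). In some other fits E2F5 differed more, such as without DKO replicate 2 (-1.40 and 1.27).

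**Figure D1:**
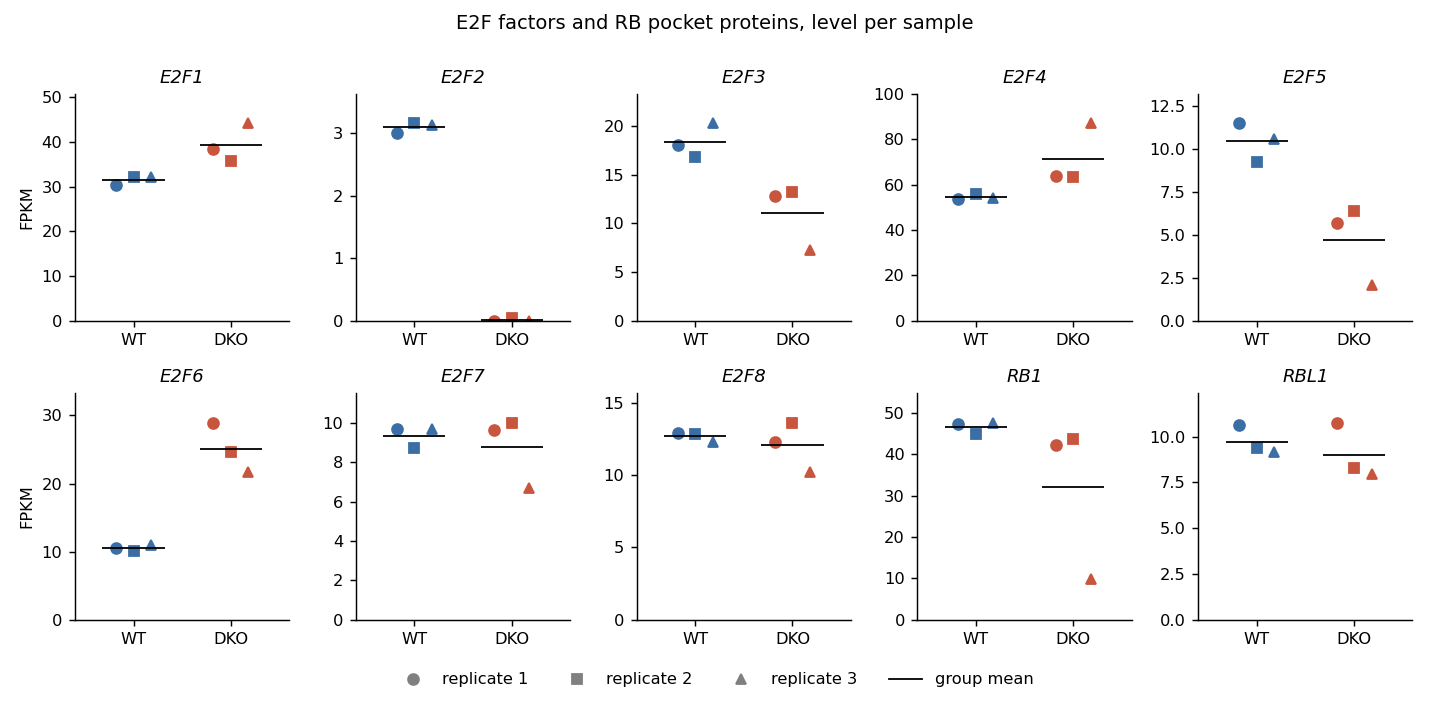
FPKM (y axes, each from 0) of the 10 members in the WT and DKO samples; symbols mark the replicate number and lines the group mean. E2F2 is at 0 to 0.04 FPKM in DKO, E2F6 is at 21.7 to 29.0 against 10.1 to 11.02 in WT, and RB1 is at 9.79 in DKO replicate 3 alone.

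In WT the most abundant member per length was E2F4 (54.5 ± 1.19 FPKM, SD, n = 3), followed by RB1 (46.6 ± 1.48), E2F1 (31.5 ± 1.00), E2F3 (18.4 ± 1.76) and E2F8 (12.7 ± 0.344). E2F6 (10.5 ± 0.470), E2F5 (10.4 ± 1.14), RBL1 (9.73 ± 0.783) and E2F7 (9.35 ± 0.557) came next. The sample ranges of each neighbouring pair among these 4 overlapped, while every E2F6 value lay above every E2F7 value. E2F2 was lowest at 3.10 ± 0.0814 FPKM. The order in DKO began with E2F4 (71.5 ± 13.5), E2F1 (39.4 ± 4.30), RB1 (31.96 ± 19.2) and E2F6 (25.1 ± 3.68). DKO replicate 3 alone put E2F1 above RB1 there: RB1 was the higher of the pair in DKO replicates 1 and 2, with a mean of 43.0 FPKM against 37.0 for E2F1.

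Among the activators, E2F2 was nearly lost, E2F3 fell, and E2F1 did not pass the test. E2F2 (gene ID 103225395) had 3.01, 3.16 and 3.14 FPKM in WT and 0, 0.04 and 0 in DKO. The WT samples were tight and no DKO sample came near them. In counts this was 218, 231 and 239 against 0, 1 and 0, a ratio of 675 with an exact 95% counting interval from 121 to 26700. The single count was in DKO replicate 2, and without that library E2F2 was at least 76.1-fold lower, against a floor of 3 counts per library. Without DKO replicate 3 the ratio was 435 (77.8 to 17200). The edgeR adjusted p was 7.8e-06, and all 16 alternative fits called E2F2 lower.

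E2F3 (gene ID 103222084), which encodes an activator made from alternative promoters, had 18.02, 16.8 and 20.3 FPKM in WT and 12.9, 13.2 and 7.24 in DKO. Its values are per gene and do not tell the products of these promoters apart. Every DKO sample lay below every WT sample, and DKO replicate 3 lay lowest. E2F3 was called lower, at -0.72 on the log2 scale (SE 0.21, edgeR adjusted p = 0.029), and without DKO replicate 3 it was -0.51 (SE 0.06, edgeR adjusted p = 8.3e-10). E2F3 lost its call without WT replicate 1, 2 or 3 (adjusted p = 0.076, 0.067 and 0.10), and the adjusted p ran from 8.3e-10 to 0.10 over the fits run. With the replicate number as a block the adjusted p was 0.061.

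E2F1 (gene ID 103248605), the activator best known for also inducing apoptosis genes, had 30.4, 32.1 and 32.1 FPKM in WT and 38.3, 35.8 and 44.2 in DKO. The groups did not overlap. The fitted DKO level was 129% of WT (95% interval for this gene alone 104 to 161%, log2 fold change 0.37, SE 0.13), with an edgeR adjusted p of 0.057. Without DKO replicate 3 the log2 fold change was 0.23 (SE 0.06), E2F1 was called higher (adjusted p = 0.00026), and it was also called without DKO replicate 2 (0.44, adjusted p = 0.045). The adjusted p ran from 0.00026 to 0.19 over the fits run.

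Of the repressors that work with pocket proteins, E2F5 fell and E2F4 did not pass the test. E2F4 (gene ID 103233300), the main E2F of quiescent cells, had 53.5, 55.8 and 54.3 FPKM in WT and 63.9, 63.5 and 87.0 in DKO. All DKO samples were above WT, with DKO replicate 3 highest. Its fitted level was 136% of WT (95% interval 103 to 179%, log2 fold change 0.44, SE 0.17, edgeR adjusted p = 0.067). E2F4 was called higher without DKO replicate 3 (0.23, SE 0.05, adjusted p = 7.5e-05), and the adjusted p ran from 7.5e-05 to 0.18 over the fits run.

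E2F5 (gene ID 103237062), the close relative of E2F4, had 11.5, 9.23 and 10.6 FPKM in WT and 5.67, 6.40 and 2.10 in DKO. The groups did not overlap, and DKO replicate 3 was again the lowest sample. E2F5 was called lower, at -1.13 (SE 0.34, edgeR adjusted p = 0.033), and without DKO replicate 3 it was -0.79 (SE 0.11, adjusted p = 1.2e-08). The call was lost without WT replicate 1, 2 or 3 (adjusted p = 0.097, 0.071 and 0.092) and without DKO replicate 1 (0.053), and the adjusted p ran from 1.2e-08 to 0.097 over the fits run. The E2F4 to E2F5 ratio in FPKM was 4.65, 6.05 and 5.12 in WT and 11.3, 9.92 and 41.4 in DKO. In the RefSeq annotation E2F4 overlaps EXOC3L1 (0.233 FPKM in WT, 0.28 in DKO) and E2F5 overlaps RBIS. RBIS had 81.4, 68.4 and 66.95 FPKM in WT and 74.3, 72.35 and 11.5 in DKO, and it was lowest in DKO replicate 3, as E2F5 was. No source used here states whether the counting used strand, and reads of E2F5 and RBIS may not have been told apart.

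E2F6 (gene ID 103220798), a repressor without a pocket protein binding region, was the member called higher. It had 10.5, 10.1 and 11.02 FPKM in WT and 29.0, 24.6 and 21.7 in DKO. The groups were far apart, and the spread in DKO was wider than in WT. E2F6 rose by 1.26 on the log2 scale (SE 0.13, edgeR adjusted p = 0.00032), a fitted level of 239% of WT (95% interval 193 to 297%). The value without DKO replicate 3 was 1.34 (SE 0.08), and all 16 alternative fits called E2F6 higher, with adjusted p from 3.0e-21 to 0.0042.

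The atypical repressors E2F7 and E2F8 bind DNA without a DP partner and are themselves E2F target genes. E2F7 (gene ID 103238766) had 9.67, 8.71 and 9.68 FPKM in WT and 9.66, 10.0 and 6.70 in DKO. E2F8 (gene ID 103238969) had 12.9, 12.8 and 12.3 in WT and 12.3, 13.6 and 10.2 in DKO. In both, the genotypes overlapped and DKO replicate 3 was the lowest of the 6 samples. The fitted level of E2F7 was 95.4% of WT (95% interval 74.3 to 122%, edgeR adjusted p = 0.75) and that of E2F8 95.6% (78.1 to 117%, adjusted p = 0.70). With DKO replicate 3 left out, the log2 fold changes were 0.07 and 0.02 in place of -0.07 and -0.06, and neither gene was called in any fit.

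**Figure D2:**
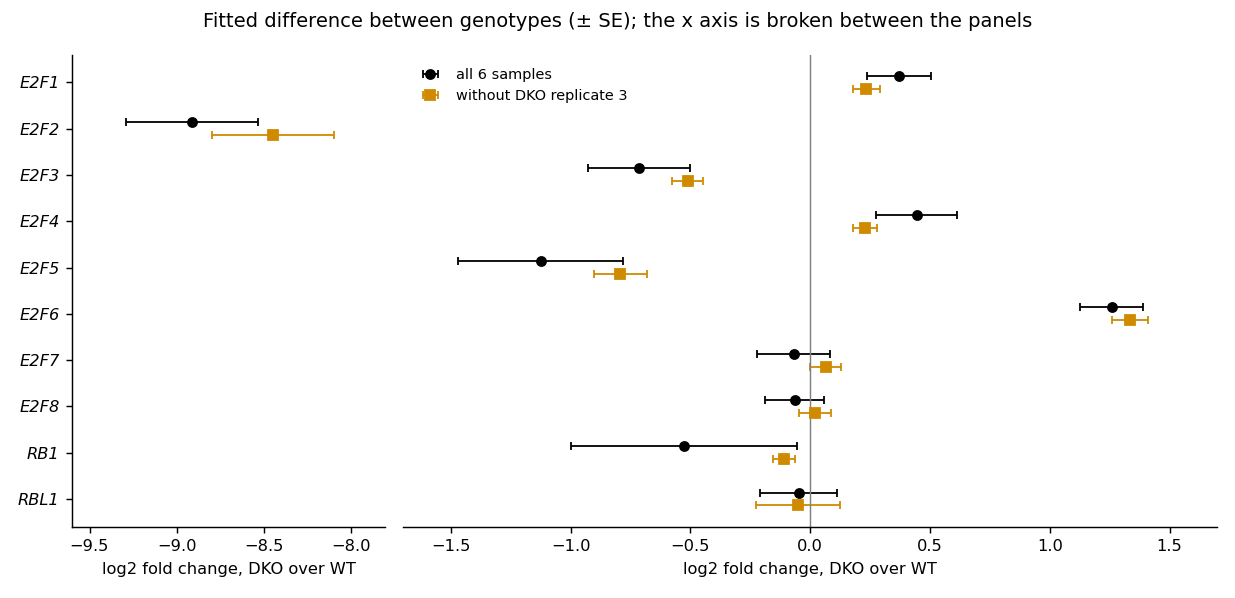
Log2 fold change (x axis, DKO over WT, with SE) of each member fitted by edgeR on all 6 samples (black) and without DKO replicate 3 (orange); the axis is broken. RB1 moves from -0.53 to -0.11 and the signs of E2F7 and E2F8 turn, while E2F6 stays at 1.26 and 1.34; the position of E2F2 depends on how the fit treats 1 count in DKO.

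RB1 (gene ID 103214406), the retinoblastoma tumor suppressor, differed among the DKO samples more than between genotypes. It had 47.3, 44.9 and 47.6 FPKM in WT and 42.3, 43.8 and 9.79 in DKO. DKO replicates 1 and 2 stood at 92.3% of the WT mean and DKO replicate 3 at 21.0%. In log2 CPM, the difference of DKO replicate 3 from the other DKO samples was -2.05, and 102 of 13094 tested genes (0.779%) had a difference as low or lower. The WT samples spanned 0.08 for RB1. Fitted over all samples, RB1 stood at -0.53 (SE 0.47, edgeR adjusted p = 0.40) and a 95% interval from 32.1 to 150% of WT, a range that spans a large decrease and an increase. RB1 without DKO replicate 3 was called lower by a small amount (-0.11, SE 0.05, adjusted p = 0.029), and the adjusted p ran from 0.029 to 0.53 over the fits run. LPAR6, which RefSeq places inside RB1, was at 0.03 FPKM in both genotypes.

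Among the other members, the same difference of DKO replicate 3 was -1.37 for E2F5, -0.74 for E2F3 and 0.56 for E2F4, outside the quartiles of all tested genes. E2F1 (0.36), E2F2 (-0.30), E2F6 (-0.25), E2F7 (-0.46), E2F8 (-0.28) and RBL1 (0.0067) lay within them. The E2F2 value rests on DKO counts of 0, 1 and 0, too few to compare the DKO samples.

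RBL1 (gene ID 103246453), which encodes p107, had 10.6, 9.40 and 9.16 FPKM in WT and 10.8, 8.27 and 7.95 in DKO. The groups overlapped, and the fitted level was 96.8% of WT (95% interval 74.3 to 126%, edgeR adjusted p = 0.83), with a log2 fold change of -0.05 both with and without DKO replicate 3. This row rests on 56 to 78 counts per library. Its counts and FPKM together imply a transcript of 0.486 kb, whereas those of the other members imply 1.71 to 5.57 kb. RefSeq lists the gene ID under a locus name without the symbol, beside SAMHD1. The RBL1 values therefore come from a short gene model, which may not hold the whole transcript.

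RBL2, the remaining pocket protein gene, had 13.5, 12.04 and 13.8 FPKM in WT and 10.9, 11.7 and 6.75 in DKO. All DKO samples were below WT, at -0.40 on the log2 scale (SE 0.20, edgeR adjusted p = 0.14), and without DKO replicate 3 RBL2 was called lower (-0.21, adjusted p = 0.0043). The RB1 to RBL2 ratio in FPKM was 3.44 to 3.73 in WT, 3.90 and 3.75 in DKO replicates 1 and 2 and 1.45 in DKO replicate 3.

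**Figure D3:**
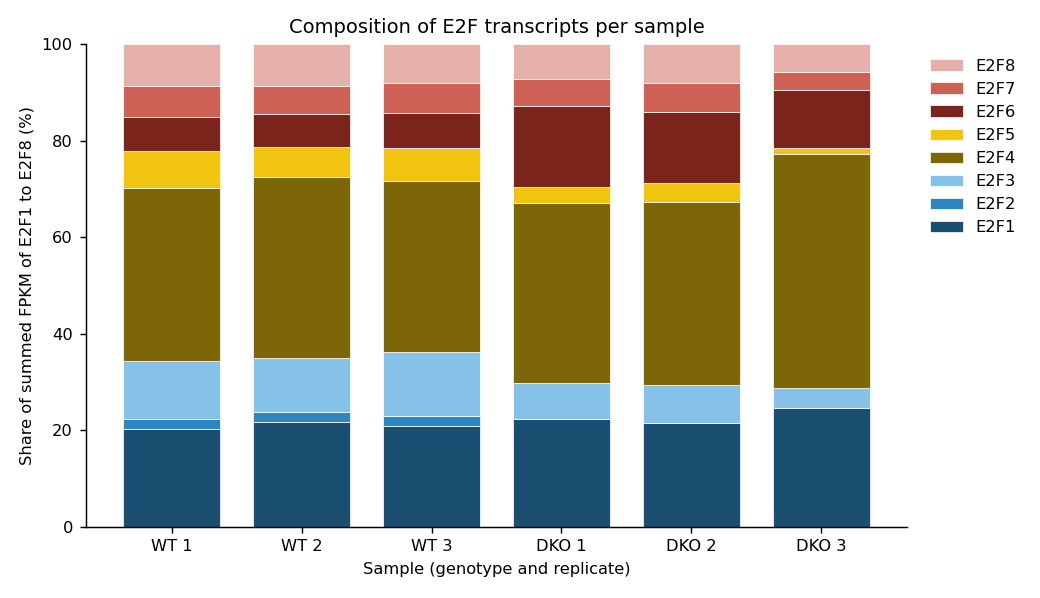
Share (y axis, percent) of each factor in the summed FPKM of E2F1 to E2F8, one bar per sample. E2F6 (dark red) takes 7.003% on average in WT and 14.6% in DKO, E2F3 and E2F5 narrow, and E2F2 is no longer visible in DKO.

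E2F6 took a larger share of the E2F transcripts in DKO, and E2F2, E2F3 and E2F5 smaller ones. The summed FPKM of the 8 factors was 149, 149 and 153 in WT and 172, 167 and 179 in DKO. The activators E2F1 to E2F3 made up 34.4, 35.0 and 36.2% of it in WT and 29.8, 29.4 and 28.7% in DKO, without overlap. The sum itself was larger in DKO, so a smaller share need not mean a lower level in FPKM. E2F6 alone made up 7.05, 6.78 and 7.19% in WT and 16.9, 14.7 and 12.1% in DKO. The shares of E2F6 to E2F8 together were 29.7 and 28.8% in DKO replicates 1 and 2, above the 21.3 to 22.1% of WT, but 21.5% in DKO replicate 3. E2F4 and E2F5 together held 43.5, 43.7 and 42.3% in WT and 40.5, 41.8 and 49.8% in DKO, with DKO replicate 3 highest. These shares are descriptions and were not tested.

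The DP partners of E2F were present throughout. TFDP1, which pairs with most E2F factors, had 81.5, 76.7 and 79.3 FPKM in WT and 110, 108 and 102 in DKO. The rise was small and even (log2 fold change 0.47, SE 0.08, edgeR adjusted p = 0.0030), and TFDP1 was called in all 6 fits that left out 1 sample. TFDP2 stood at 10.4 ± 0.717 and 8.56 ± 2.16 FPKM (adjusted p = 0.33), and TFDP3 was at 0.04 FPKM or less in every sample.

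E2F6 works in a Polycomb repressor complex, PRC1.6, whose scaffold MGA binds DNA as a dimer with MAX. Of 13 genes of this complex, 3 were called higher and 3 lower (46.2%, against 45.5% of all genes), with a median log2 fold change of -0.03 beside -0.01 for all genes. MGA had 7.57, 6.96 and 7.50 FPKM in WT and no count in any DKO sample, at least 404-fold lower. MAX had 19.8, 19.5 and 19.6 FPKM in WT and 46.6, 49.95 and 41.2 in DKO (1.27, SE 0.10, adjusted p = 9.8e-05). In DKO the scaffold was thus undetected where E2F6 and MAX were each more than doubled.

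Further subunits went both ways. L3MBTL2, a reader subunit, rose from 14.9 ± 0.524 to 25.8 ± 3.61 FPKM (0.84, SE 0.15, edgeR adjusted p = 0.0035). The deacetylase gene HDAC2 had 65.5, 60.8 and 67.1 FPKM in WT, 163 and 166 in DKO replicates 1 and 2 and 79.6 in DKO replicate 3 (1.11, SE 0.25, adjusted p = 0.0092). The other genes called lower, PCGF6 (-0.79, SE 0.23) and the ubiquitin ligase gene RNF2 (-0.86, SE 0.22), lie outside the naming rule and were named after their values were seen. Both lost their calls without WT replicate 1, 2 or 3 (largest adjusted p 0.093 and 0.060), which left 3 higher and 1 lower of 13 in those fits (30.8%, beside 32.15 to 33.04% of all genes). There were 5 higher and 3 lower without DKO replicate 3 (61.5%, beside 74.6%).

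**Figure D4:**
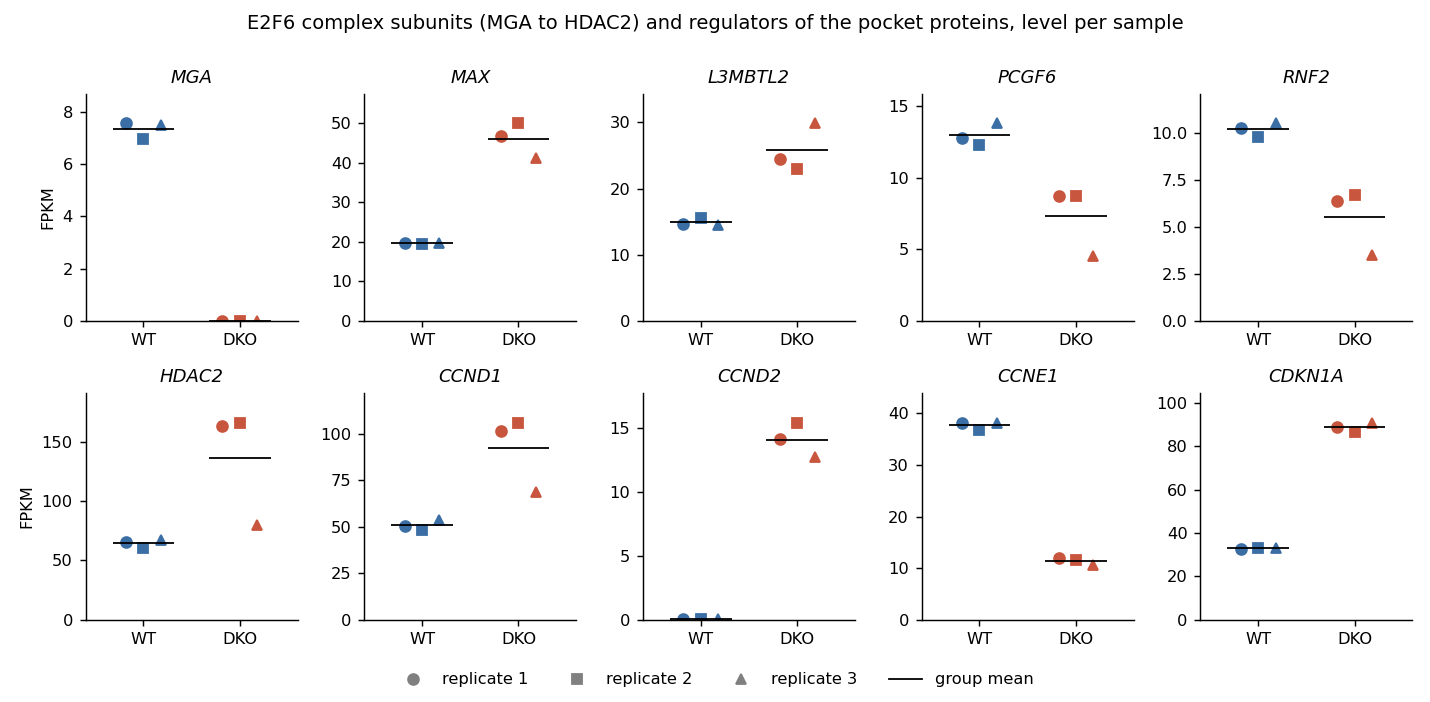
FPKM (y axes, each from 0) per sample of PRC1.6 genes and of regulators of the pocket proteins; symbols mark replicate numbers and lines group means. MGA and CCNE1 are lower and MAX, CCND2 and CDKN1A higher in every DKO sample, and HDAC2 and CCND1 are nearer to WT in DKO replicate 3.

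CCND1 and CCND2, which encode D cyclins, were higher and the cyclin E1 gene lower in DKO, while CCND3 was not called (58.4, 55.3 and 52.4 FPKM in WT, 62.8, 62.9 and 72.8 in DKO, edgeR adjusted p = 0.084). Among 11 cyclins and kinases that act on pocket proteins, 3 were called higher and 2 lower, a share of 45.5% that equals the background. There were 2 higher and 1 lower without WT replicate 1, 2 or 3 (27.3%, beside 32.15 to 33.04% of all genes) and 6 and 4 without DKO replicate 3 (90.9%, beside 74.6%). The cyclin D2 gene CCND2 had 0.07, 0.08 and 0.03 FPKM in WT and 14.1, 15.5 and 12.7 in DKO (edgeR adjusted p = 4.4e-06). Cyclin D1 (CCND1) had 50.3, 48.3 and 53.5 FPKM in WT and 101, 106 and 68.7 in DKO (0.89, SE 0.15, adjusted p = 0.0028). D cyclins start pocket protein phosphorylation with CDK4 and CDK6. CCNE1, whose product completes it with CDK2 and which is itself an E2F target, fell from 38.1, 36.7 and 38.2 to 11.9, 11.6 and 10.6 FPKM (-1.69, SE 0.10, adjusted p = 3.2e-05). CDK2 was higher by 0.50 on the log2 scale (SE 0.14, adjusted p = 0.025), a call lost without WT replicate 1, 2 or 3 (largest adjusted p 0.098).

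Among 6 tested inhibitors of these kinases, 2 were called higher and 1 lower (50%, beside 45.5% of all genes). CDKN1A, the p21 gene, had 32.5, 33.1 and 33.3 FPKM in WT and 89.0, 86.4 and 91.1 in DKO (1.48, SE 0.10, edgeR adjusted p = 4.7e-05). CDKN2D, the p19 inhibitor of CDK4 and CDK6, rose from 5.53 ± 0.1002 to 13.1 ± 1.16 FPKM (1.31, SE 0.15, adjusted p = 0.00052). CDKN1C, the p57 gene, fell from 1.88 ± 0.189 to 0.337 ± 0.0961 (-2.43, SE 0.24, adjusted p = 0.00024). These calls held in each fit that left out 1 sample. Leaving out DKO replicate 3 gave 3 higher and 2 lower (83.3%, beside 74.6% of all genes). Without DKO replicate 1 there were 2 and 2 (66.7%, beside 40.1%). CDKN2A, CCNF and POLD1 of the lists used here were not analysed here.

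Of 16 chromatin corepressors that pocket proteins recruit, 4 were called higher and 5 lower (56.2%, beside 45.5% of all genes). There were 3 and 2 without WT replicate 1, 2 or 3 (31.2%, beside 32.15 to 33.04%) and 6 and 7 without DKO replicate 3 (81.2%, beside 74.6%). SIN3A, the scaffold of a deacetylase complex, had 18.6, 18.5 and 19.4 FPKM in WT and 12.03, 11.5 and 11.2 in DKO (-0.65, SE 0.09, edgeR adjusted p = 0.0012). ARID4B, an RB binding subunit of that complex, fell from 15.9 ± 0.725 to 5.67 ± 2.38 FPKM (-1.47, SE 0.29, adjusted p = 0.0058). HDAC3 rose from 59.9 ± 3.19 to 102 ± 16.5 (0.83, SE 0.16, adjusted p = 0.0052).

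MuvB is the core that joins E2F4 and a pocket protein in the DREAM repressor and later joins MYBL2 and FOXM1 to activate mitotic genes. Of 8 listed genes, those of MuvB together with MYBL1, MYBL2 and FOXM1, 1 was called higher and 1 lower (25%, beside 45.5% of all genes). LIN9 had 9.78, 8.68 and 9.86 FPKM in WT and 5.16, 5.23 and 1.98 in DKO (-1.18, SE 0.32, edgeR adjusted p = 0.022), and LIN52 had 4.01, 4.24 and 4.25 against 7.41, 7.20 and 4.97 (0.69, SE 0.16, adjusted p = 0.012). LIN9 lost its call without WT replicate 1, 2 or 3 (largest adjusted p 0.070) and LIN52 without WT replicate 1 (0.059). MYBL2 (194 ± 6.92 and 214 ± 37.2 FPKM) and the histone binding gene RBBP4 (169 ± 6.05 and 133 ± 28.2) had the highest levels and were not called. The counts were 2 higher and 3 lower without DKO replicate 3 (62.5%, beside 74.6% of all genes). Without WT replicate 1, 2 or 3 they were 0 to 1 higher and 0 lower (0 to 12.5%, beside 32.15 to 33.04%).

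Of the ligase genes that control E2F turnover, CDC20 was higher (0.75, SE 0.16, edgeR adjusted p = 0.0081) and FZR1, its relative that acts in G1, lower (-0.73, SE 0.17, adjusted p = 0.011). FZR1 had 28.8, 29.9 and 28.6 FPKM in WT and 15.4, 14.9 and 20.6 in DKO. SKP2 was at 48.0 ± 1.41 and 46.8 ± 6.49 FPKM and was not called. Of the 6 tested genes of the list, 33.3% were called, beside 45.5% of all genes, with 1 higher and 1 lower. Without DKO replicate 2 there were 2 lower (50% called, beside 41.6%), and without DKO replicate 3 there were 3 lower (66.7% called, beside 74.6%).

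**Figure D5:**
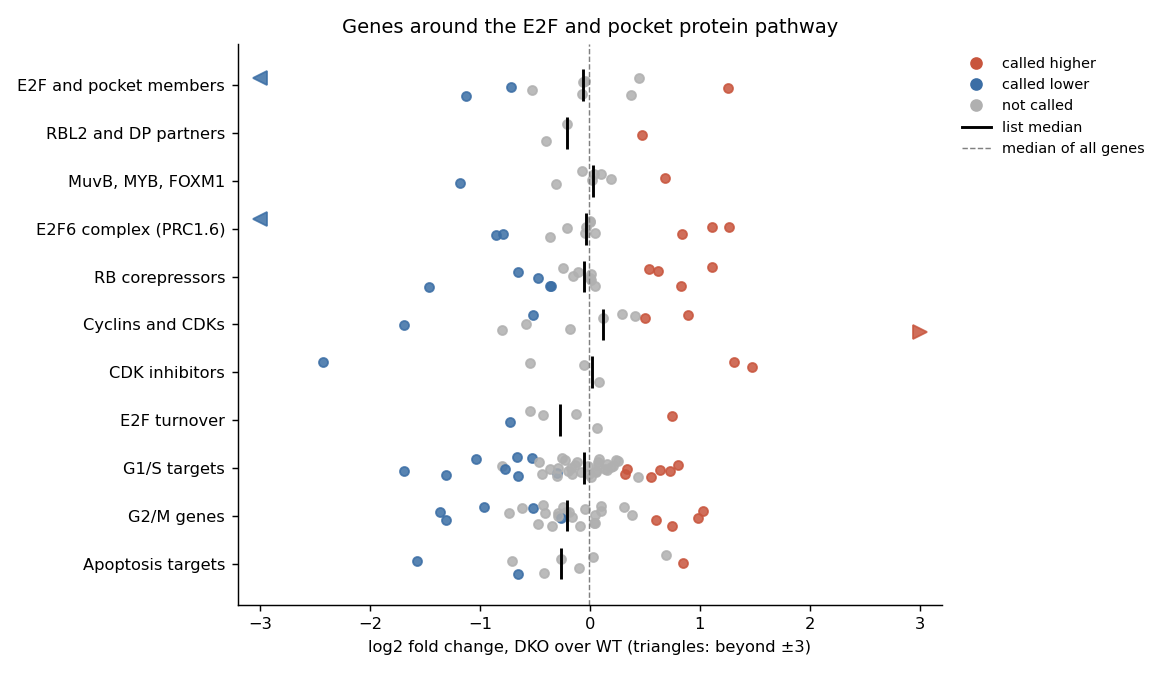
Log2 fold change (x axis, DKO over WT, edgeR) of the tested genes of each list, colored by call, with list medians and the median of all genes (dashed); triangles stand for E2F2, MGA and CCND2, which lie beyond the axis. Called genes lie on both sides of 0 in each list but that of RBL2 and the DP partners, where TFDP1 is the single call.

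E2F target genes were called in both directions. Of 44 G1/S target genes, 6 were called higher, 8 lower and 30 not, or 31.8% called beside 45.5% of all genes, with a median log2 fold change of -0.05. BRCA1, a DNA repair gene, had 15.0, 16.6 and 15.8 FPKM in WT and 8.05, 8.22 and 6.31 in DKO (-1.03, SE 0.12, edgeR adjusted p = 0.00059). CHAF1B, a subunit of the chromatin assembly factor, fell from 54.6 ± 1.80 to 31.1 ± 1.87 FPKM (-0.77, SE 0.11, adjusted p = 0.0012). RRM2, a subunit of ribonucleotide reductase, rose from 324 ± 6.09 to 463 ± 57.6 (0.56, SE 0.09, adjusted p = 0.0020). Leaving out DKO replicate 3 made 11 higher and 19 lower (68.2% called, beside 74.6% of all genes), and without WT replicate 1, 2 or 3, 4 were higher and 6 lower (22.7%, beside 32.15 to 33.04%).

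Of 30 G2/M genes that DREAM represses in quiescent cells, 4 were called higher, 5 lower and 21 not (30% called, beside 45.5% of all genes), with a median log2 fold change of -0.20. CKS2, a subunit of cyclin-dependent kinases, had 184, 186 and 191 FPKM in WT and 383, 376 and 332 in DKO (1.03, SE 0.09, edgeR adjusted p = 0.00013), and the kinesin gene KIF20A rose from 74.8 ± 0.431 to 144 ± 6.60 (0.99, SE 0.09, adjusted p = 0.00020). The centromere gene CENPF fell from 54.4 ± 2.45 to 20.7 ± 5.68 (-1.37, SE 0.19, adjusted p = 0.0012) and the kinase gene NEK2 from 17.0 ± 0.217 to 8.53 ± 1.88 (-0.97, SE 0.16, adjusted p = 0.0024). Leaving out DKO replicate 3 made 8 higher and 16 lower (80% called, beside 74.6% of all genes), and without WT replicate 1, 2 or 3, 3 were higher and 2 lower (16.7%, beside 32.15 to 33.04%).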

How the data were processed

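RNA of 3 WT and 3 DKO samples was measured. The authors deposited estimated counts per gene and FPKM, per the file headers. Tools listed per the submitters' processing notes were HISAT and Bowtie2, with no role stated. No source used here gives versions, counting program, strand setting or build. The table's 9 columns of other samples were not used. Estimated counts were rounded and tested with edgeR 4.0.16 (R 4.3.3): TMM, default filter (minimum count 10), quasi-likelihood test, Benjamini-Hochberg adjustment over 13094 genes. SE is the log2 fold change over the root of F, and intervals use the t distribution. Levels are FPKM. Symbols are the table's; 92.7% of gene IDs matched RefSeq mChlSab1.0.hap1, used for names and neighbours. Members and lists were chosen with earlier results of these data known. Named genes were the members, their partners, and up to 4 called genes per list by adjusted p, adding up to 2 of the highest FPKM where fewer than 3 were called; CCND2, MGA and MAX were named in any case, and so were the 5 genes most like E2F2. One gene that the rule would name is not reported here. Alternatives were leaving out each sample, a replicate block, no filter, other normalizations, DESeq2 1.42.0, limma 3.58.1 on voom values or log2 FPKM (pseudocounts 1 and 0.1), and a threshold of 0.01. The tests were tested on simulated data. The sequence descriptions that had been planned were not made, and sequences were not analysed here. Counting intervals and floors cover counting error only. For 3 samples against 3, an exact two-sided permutation test cannot go below p = 0.1. Figures used matplotlib 3.10.9.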

Additional observations from a re-analysis of the deposited data

How the results depend on the processing

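E2F2 and E2F6 kept their calls and directions in all 16 alternative fits. Leaving out each sample gave 1 to 3 members higher and 1 to 4 lower, and 4266 to 9880 genes called in all. The limma tests on log2(FPKM + 1) and log2(FPKM + 0.1) with the filter called 2 members higher, adding E2F1. At an adjusted p below 0.01, 1 member was called higher and 1 lower (20% of members), beside 3902 genes in all (29.8%). With each sample left out in turn, the log2 fold change of E2F7 ran from -0.164 to 0.0651, that of E2F8 from -0.155 to 0.0201 and that of RBL1 from -0.158 to 0.0371, with no call. The signs turned without DKO replicate 3 (E2F7, E2F8) and without WT replicate 1 or DKO replicate 2 (RBL1). The replicate block gave 1 member higher, 2 lower and 4485 genes called. Same-numbered samples did not deviate together (correlations 0.02, -0.28 and -0.29 of log2 CPM deviations). With so few samples, and DKO replicate 3 apart, these correlations cannot decide whether same-numbered samples shared a culture or batch. The other normalizations, DESeq2, limma-voom and the missing filter kept 1 higher and 3 lower. Limma on log2(FPKM + 1) without the filter gave 1 and 2, with E2F3 at an adjusted p of 0.052. The causes were not tested. Counts were few for E2F2 in DKO (0 to 1 per library) and for RBL1 (56 to 78 per library).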

Other observations

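Apoptosis genes that E2F1 can induce were called in both directions in DKO. Of 9 tested, 1 was called higher, 2 lower and 6 not (33.3% called, beside 45.5% of all genes). TP73, the p53 relative, had 6.48, 6.02 and 5.81 FPKM in WT and 1.87, 1.65 and 2.33 in DKO (log2 fold change -1.57, SE 0.17, edgeR adjusted p = 0.00034). BID, a proapoptotic relative of BCL2, rose from 10.8 ± 0.991 to 18.5 ± 2.21 FPKM (0.84, SE 0.17, edgeR adjusted p = 0.0068). Without DKO replicate 3, 3 were lower (44.4% called, beside 74.6%), and without WT replicate 1, 2 were higher (44.4% called, beside 32.2%).

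The nearest genes of E2F2 in the RefSeq annotation, looked up after the E2F2 values were seen, were not lost with it. RPL11, a ribosomal protein gene, had a mean of 1373 FPKM in WT and 1632 in DKO. It was called higher (log2 fold change 0.32, SE 0.09, edgeR adjusted p = 0.024). ASAP3 had 8.17 and 6.79 FPKM (edgeR adjusted p = 0.26), and TCEA3, at 0.283 and 0.247 FPKM, was not tested. ID3, an inhibitor of helix-loop-helix factors, fell from 218 to 75.7 FPKM (-1.47, SE 0.13, edgeR adjusted p = 0.00017). Some neighbours of the other called members, named after their values were seen, were called in the same direction, which was not tested. Beside E2F6, PQLC3 (13.7 FPKM in WT, 21.7 in DKO) and GREB1 (0.38 and 0.657) were called higher, and ROCK2 was not called. Beside E2F5, LRRCC1 (7.26 and 2.13) and CA13 (1.12 and 0.213) were called lower, and RBIS was not. Beside E2F3, CDKAL1 (8.13 and 5.62) was called lower and MBOAT1 was not called. Of all genes tested, 45.5% were called. Among the tested genes, those whose log2 CPM followed E2F2 most closely over the 6 samples were ZC4H2, FBN2, ADGRF5, SHROOM4 and HOXA2 (Pearson r of 0.9998 to 1). Their WT means were 1.11 to 4.90 FPKM and no DKO sample was above 0.05. In all, 608 of 13094 tested genes had r above 0.99 with E2F2, and the 6 points share the genotype difference.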
